A study of Mus musculus with 51 samples.

Results

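Carbonic anhydrases convert carbon dioxide and water into bicarbonate and a proton. The members differ mainly in where they work. Car2, Car3 and Car13 are cytosolic, Car4 is anchored by a lipid tail to the outer face of the cell membrane, and Car9, Car12 and Car14 cross the membrane with the catalytic domain outside. In human tumors CA9 is a well-known target of hypoxia-inducible factors and CA12 is common in estrogen receptor-positive breast cancer, while in mice Car3 is abundant in fat and slow muscle and Car4 lines capillaries. The 7 mouse genes Car2, Car3, Car4, Car9, Car12, Car13 and Car14 were followed here across mammary tumors driven by the fusion kinase Etv6-NTRK3. They were chosen by name from the array annotation, with the level of Car12 in tumor and hyperplastic cells already known. They carry 15 of the 34944 probe sets that name a single gene and are 7 of the 18192 genes so measured.

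The arrays fall into 6 groups. In the tumor model a conditional Etv6-NTRK3 knock-in allele is switched on by Cre under the Wap promoter, which is active in milk-secreting mammary epithelium, and a Rosa26 lacZ reporter marks the switched cells. Sorted hyperplasia is lacZ-positive hyperplastic epithelium (4 arrays from 4 mice), sorted primary tumor is lacZ-positive cells of primary tumors (8 arrays from 6 mice), and sorted transplanted tumor is lacZ-positive cells of tumors passaged in RAG2-/- recipients (7 arrays from 5 mice of origin, passages 1 to 4). Unsorted primary tumors gave 23 arrays of 22 tumors from 14 mice. Unsorted transplanted tumors in RAG2-/- recipients gave 4 arrays from 2 mice of origin, CR90 and CR115. The wild-type gland group is whole mammary gland from 5 wild-type mice, 1 array each, so it carries neither the fusion allele nor the sort. Ages and reproductive stages are not given in the sources used here.

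Values are log2 of the deposited intensity with everything below 32 set to 32, so 5.00 is the floor, a setting and not a measured background. Levels of different probe sets are not set against each other. The number of arrays limits the precision. Array medians lay between 42.9 and 57.8 intensity units. The epithelial marker list was above the floor in every group, with mean log2 levels of 9.80 to 11.91 over the arrays. Sorted cells also carried signal of other cell types. Their summed macrophage marker intensity was 13084.5 to 29644 in hyperplasia, 3519 to 24050 in primary tumor and 1495 to 18059 in transplanted tumor. For fibroblast markers it was 14873.5 to 22723, 1691 to 28830 and 1388 to 13620 in the same order. The part of these cells in the member levels was not tested. The ratio of the 3′ over the 5′ Gapdh control probe sets, a sign of RNA quality or labelling, ran from -0.36 to 1.14 in log2, and gland G340 had the highest. Among the sorted arrays this ratio lay at or below -0.11 on 11 and between -0.03 and 0.14 on 8. The 8 include the 4 sorted tumors of mice F433 and G421, so for those tumors mouse and ratio cannot be told apart. A hybridization control was also brighter on 2 hyperplasia arrays, at 12.53 on G376H and 11.35 on F493H in log2, than on any other array.

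Of the 15 member probe sets, 2 stayed at the floor on all 51 arrays (1446517_at of Car12 and 1453588_at of Car3), and 12 passed the filter on dim probe sets. Each gene is represented by its brightest probe set, and all 7 genes were tested. Car2 (1448752_at), Car9 (1427013_at) and Car13 (1421307_at) were above the floor on all 51 arrays, Car12 (1428485_at) on 46, Car3 (1449434_at) on 22, Car14 (1450725_s_at) on 7 and Car4 (1448949_at) on 6.

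**Figure D1:**
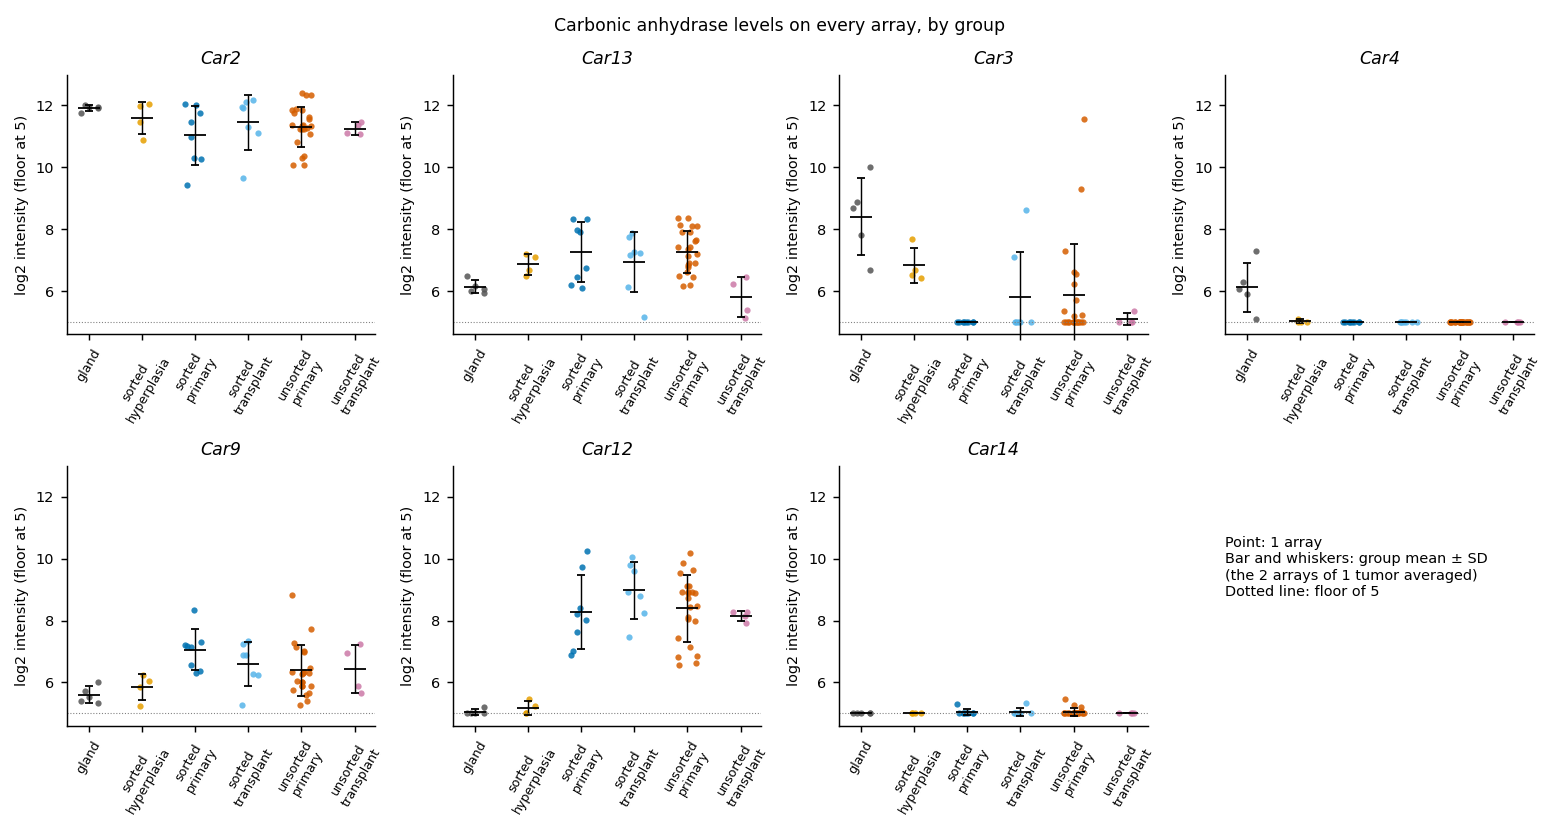
Log2 intensity of the probe set that represents each carbonic anhydrase gene (vertical axis, floor at 5) on every array, by group (horizontal axis). Points are arrays, bars are group means with SD. Car12 sits at 5.00 to 5.47 in gland and hyperplasia and at 6.56 to 10.26 in the tumor groups, Car4 leaves the floor almost only in gland, and Car2 is bright in every group.

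Promoter sequences are shown for Car12 and Car9, the members with the largest differences between hyperplastic and tumor cells in the upward direction. RefSeq's table (build GRCm38.p6) held a promoter for 4 of the 7 genes, Car4, Car9, Car12 and Car14. Each runs from 250 bases before the annotated start to 50 after it, on the gene's strand. Both strands were searched for the core of the hypoxia response element, ACGTG, and for its variant GCGTG. Both hold the letters CGTG, so matches on opposite strands can overlap. Capitals mark a match, here the reverse complement of ACGTG. The Car12 window is chr9:66713436-66713735 on the plus strand and the Car9 window is chr4:43506776-43507075 on the plus strand.
Car12: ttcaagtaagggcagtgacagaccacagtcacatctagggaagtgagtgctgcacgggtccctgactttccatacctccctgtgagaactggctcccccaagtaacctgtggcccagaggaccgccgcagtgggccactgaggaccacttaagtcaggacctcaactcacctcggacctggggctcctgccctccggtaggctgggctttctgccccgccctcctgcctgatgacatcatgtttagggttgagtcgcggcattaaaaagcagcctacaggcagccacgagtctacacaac
Car9: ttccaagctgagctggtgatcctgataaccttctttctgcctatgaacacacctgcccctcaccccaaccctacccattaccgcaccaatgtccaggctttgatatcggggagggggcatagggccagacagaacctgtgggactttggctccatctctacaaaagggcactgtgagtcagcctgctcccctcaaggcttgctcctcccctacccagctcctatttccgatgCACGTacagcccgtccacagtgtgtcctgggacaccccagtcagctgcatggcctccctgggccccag

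The Car9 window held 1 ACGTG, on the minus strand, with its first base in the printed window at position -18 from the start. Car14 held 1 at position -7 and Car4 held 1 at position 3, both on the strand opposite to the gene. The Car12 window held neither motif. Of 32851 promoters of the same length, 19.6% held ACGTG, 32.4% held GCGTG and 43.8% held either. A match in a window describes its letters only.

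Car12, the transmembrane member with its active site outside the cell, was the member with the widest gap between tumor and non-tumor arrays. In wild-type gland Car12 was at 5.00 on 4 arrays and 5.20 on G340. In sorted hyperplasia Car12 was 5.00 on G376H and G420H, 5.24 on F493H and 5.47 on H464H. Both groups therefore lay at or near the floor. In sorted primary tumors Car12 was 6.89 in F464T, 8.03 in F405T, 9.72 in E344T, 7.63 in G294T, 10.26 in F433T1, 8.20 in F433T3, 8.40 in F433T4 and 7.005 in G421T1. In sorted transplanted tumors Car12 was 10.05 in D279T1P2, 8.92 in D279T2P2, 7.47 in E344T2P1, 8.79 in F402TP2, 9.78 in F433T4P1, 9.59 in D396TP3 and 8.24 in D279T1P4. Every sorted tumor array was above every hyperplasia array. The 22 unsorted primary tumors ran from 6.56 in C117T6 over a median of 8.71 to 10.19 in C231T1, and the unsorted transplants were 7.93 and 8.28 (CR90) and 8.27 and 8.16 (CR115). No tumor array reached down to the highest non-tumor level of 5.47.

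The difference between hyperplastic and tumor cells is what Car12 was chosen for, so it is given without a test. The fitted Car12 difference of sorted primary tumor from sorted hyperplasia was 3.00 ± 0.61 (SE) in log2, from group means of 8.27 ± 1.20 (SD, n = 8) and 5.18 ± 0.23 (SD, n = 4). Sorted transplanted tumor, with a mean of 8.98 ± 0.92 (SD, n = 7), differed from hyperplasia by 3.52 ± 0.62 (SE). With hyperplasia close to the floor, both differences depend on where the floor is set. Across all 15128 tested genes, 3.8% passed an adjusted p under 0.05 in the first of these comparisons and 6.28% in the second. Of the 7 members, 3 had groups that did not overlap between sorted primary tumor and hyperplasia (Car12 and Car9 higher in tumor, Car3 lower), where 1.34% of all genes did not overlap. Against sorted transplants only Car12 did not overlap among the 7, beside 3.52% of all genes. Nothing is read from these counts, since the members were chosen with that contrast known.

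The values that chose Car12 covered all 6 groups, so its difference between unsorted primary tumor and wild-type gland is likewise a description. Car12 was at 8.39 ± 1.08 (SD, n = 22) in the tumors and 5.04 ± 0.09 (SD, n = 5) in gland, a fitted difference of 3.43 ± 0.50 (SE). With gland at the floor the size is set by the floor and the probe sets used, and it ran from 1.14 (mean of probe sets) to 3.57 (floor 16) over the alternative settings. All 22 tumors were above all 5 glands. In this comparison limma, with Benjamini-Hochberg adjustment over all genes, called 2 of the 7 members higher (Car12 and Car13) and 2 lower (Car3 and Car4), beside 51% of all tested genes, 29.5% higher and 21.6% lower. Groups did not overlap for Car12 and Car4, beside 14.3% of all genes. Nothing is read from these counts, since Car12 was chosen on such values and Car4 passed the filter on dim probe sets only through gland.

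The 4 tumor groups did not differ from each other in Car12 past the threshold in any of the 4 comparisons tested. The fitted difference was -0.29 for sorted against unsorted primary tumor (95% interval -1.16 to 0.57, adjusted p = 0.665). For sorted transplanted against sorted primary tumor it was 0.53 (95% interval -0.45 to 1.497, adjusted p = 1). For unsorted transplanted against unsorted primary tumor it was -0.35 (95% interval -1.50 to 0.80, adjusted p = 0.96). For sorted against unsorted transplanted tumor it was 0.58 (95% interval -0.75 to 1.92, adjusted p = 0.596). The intervals still allow differences of more than 1 log2 unit in one direction each. By group mean, Car12 was highest in sorted transplants (8.98), then unsorted primary tumors (8.39), sorted primary tumors (8.27) and unsorted transplants (8.16), and these neighbours overlap. Hyperplasia (5.18) and gland (5.04) followed, separated from the tumor groups but not from each other.

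Tumors of the same mouse could differ widely in Car12. Over the 6 mice with several unsorted primary tumors, the range within a mouse had a median of 0.73 and reached 2.98 in C117, where the tumors were at 9.54, 6.84, 8.91 and 6.56. The D254 tumors lay close together at 8.88 and 8.74. Among sorted tumors of F433, T1 was at 10.26 and T4 at 8.40, and cells of T4 after 1 passage were at 9.78. For D279 tumor 1, the unsorted primary was at 9.12, the sorted cells at passage 2 at 10.05 and at passage 4 at 8.24. No direction was shared by these single-array lineages.

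**Figure D2:**
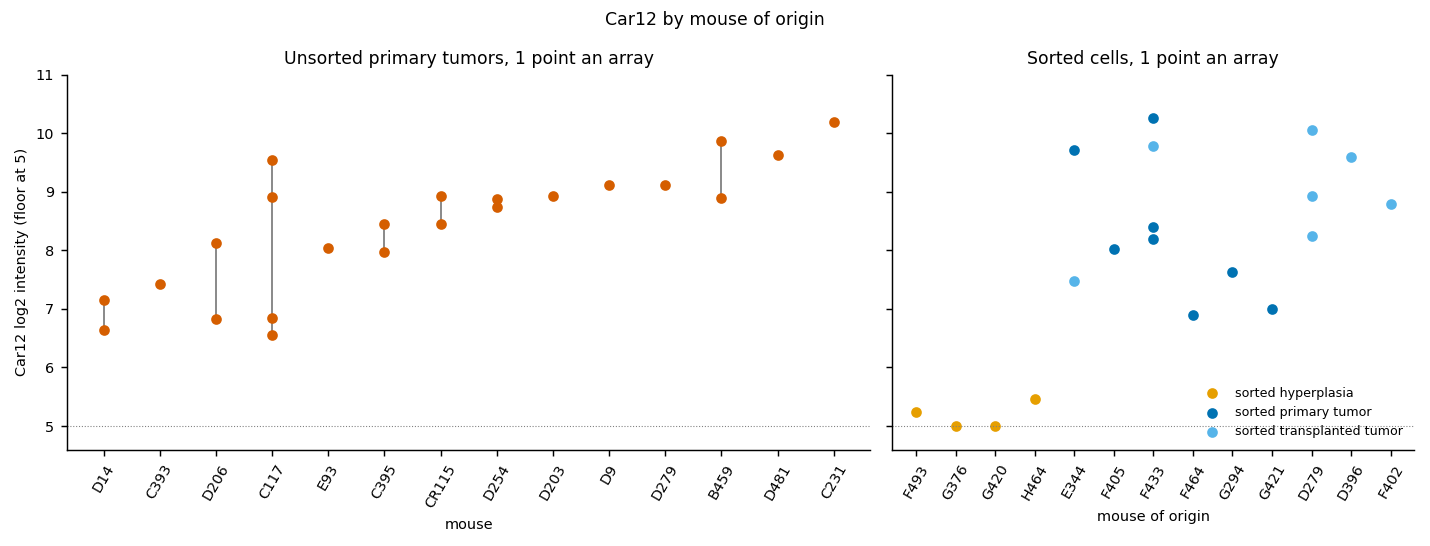
Car12 log2 intensity (vertical axis, floor at 5) by mouse of origin (horizontal axis), with unsorted primary tumors on the left, ordered by their mean and joined within a mouse, and sorted cells on the right. Points are arrays, and the CR115 pair is 1 tumor on 2 arrays. Within C117 the tumors span 6.56 to 9.54, and all 4 hyperplasia arrays lie at or below 5.47.

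The other Car12 probe sets carried little signal. 1447762_x_at was above the floor on 6 arrays, and those above 5.5 were E344T at 5.90, F433T1 at 6.49 and D279T1P2 at 6.43, which were also the arrays at 9.72, 10.26 and 10.05 on the main probe set. The 3 genes most correlated with Car12 over the 50 replicates were Prtn3 (r = 0.76), Sh3tc2 (r = 0.76) and Fxyd3 (r = 0.75), given as a description, since the replicates share tumor and non-tumor groups. The marker list of hormone-sensing luminal cells was lower in tumor against gland in 6 of 6 tested members, where 21.6% of all genes were called lower. Cited1 and Tnfsf11 were at the floor on every tumor array. They passed the filter only through gland or hyperplasia, so their fall is no test and nothing is read from the count. The list's estrogen receptor gene Esr1 was singled out after its values were seen, because CA12 is an estrogen receptor target in human breast cancer cells. Esr1 ran from 6.38 to 8.33 in gland and from 5.52 to 7.40 in unsorted primary tumors. It stood at the floor on all 4 unsorted transplants, where Car12 was 7.93 to 8.28. In sorted hyperplasia, with Car12 at 5.00 to 5.47, Esr1 ran from 6.53 to 7.64. It ran from 5.00 (F405T) to 8.41 (G421T1) in sorted primary tumors and from 5.53 to 6.72 in sorted transplants. The part of estrogen signalling in the Car12 level was not tested.

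Car9, the hypoxia-regulated transmembrane member, was dim in gland and more variable in tumors. In gland Car9 was 5.52, 5.34, 5.40, 6.03 and 5.71, and in hyperplasia 5.25, 6.05, 5.85 and 6.24. In sorted primary tumors Car9 ran from 6.30 (E344T) to 8.34 (F433T4) with a median of 7.16, all above hyperplasia, though F405T at 6.36 and E344T lay within 0.13 of the highest hyperplasia array. Sorted transplants ran from 5.28 (D279T2P2) to 7.34 (D396TP3) and overlapped hyperplasia. The fitted difference from hyperplasia was 1.12 ± 0.47 (SE) for sorted primary and 0.95 ± 0.47 (SE) for sorted transplanted tumors, given without a test. In unsorted primary tumors Car9 ran from 5.28 (D279T1) over a median of 6.28 to 8.84 (D206T1). Its difference from gland, 0.78 ± 0.38 (SE), did not pass (95% interval 0.02 to 1.54, adjusted p = 0.0813), and the groups overlap.

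Car9 differed within mice and between lineages. D206T1 was at 8.84 and D206T2 of the same mouse at 6.27. C117T3 and C117T1 were at 7.73 and 7.27, with C117T5 and C117T6 at 5.88 and 5.75. Unsorted transplants of CR90 were at 7.25 and 6.94 and those of CR115 at 5.66 and 5.88, the latter near the CR115 primary tumor at 5.90 and 5.61. Each CR115 array was thus below each CR90 array. The genes most correlated with Car9 were Tnc (r = 0.62), Hs3st1 (r = 0.61) and Cnp (r = 0.60) over 50 replicates.

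Of 17 tested genes of the hypoxia response list, 8 rose and 0 fell in unsorted primary tumor against gland, where 29.5% of all genes were called higher and 21.6% lower. The list median was 0.52 and that of all genes 0.10. The largest were Egln3, an oxygen-sensing prolyl hydroxylase (2.62 ± 0.52 SE), the pyruvate dehydrogenase kinase Pdk1 (2.02 ± 0.29 SE), and the glycolytic enzyme Aldoa (1.69 ± 0.21 SE). The list's mean log2 level was 8.20 to 8.76 over gland, 8.37 to 10.02 over unsorted primary tumors and 9.34 to 9.90 over unsorted transplants. It was 9.77 in D206T1, the highest in Car9, and 9.85 in its companion D206T2, where Car9 was 6.27. In sorted against unsorted primary tumors 3 list genes rose and 3 fell, beside 25.3% of all genes called in either direction. The list median there was -0.06 and its lowest difference -0.93. Hk2 (1.26 ± 0.32 SE), Vegfa (1.00 ± 0.33 SE) and the glucose transporter Slc2a1 (0.99 ± 0.28 SE) were largest. Car9 differed by 0.59 ± 0.33 in that comparison (SE, 95% interval -0.07 to 1.25, adjusted p = 0.191).

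Car14, the third transmembrane member, was at the floor in all gland, hyperplasia and unsorted transplant arrays. It exceeded the floor on 1 sorted primary tumor, 2 sorted transplants and 4 unsorted primary tumors, with a maximum of 5.47 in C117T6. Its differences in the 5 tested comparisons lay between -0.03 and 0.06, and none passed. At these levels a change could not be detected.

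Car4, the capillary member, was above the floor mainly in gland. In gland Car4 was 5.90, 7.30, 6.06, 5.10 and 6.29, with the lowest on G340. On the other 46 arrays it was at the floor except for hyperplasia G376H at 5.11. Gland, with a mean of 6.13 ± 0.79 (SD, n = 5), was therefore at least 2.19-fold above unsorted primary tumors. Car4 entered the fit only because 4 gland arrays passed the filter, so that it had to differ, and its difference is given without a test. On a second probe set, 1418094_s_at, the fitted difference was -0.77 ± 0.11 (SE), also without a test. Endothelial markers were lower in the same arrays. All 8 tested fell, beside 21.6% of all genes called lower. The largest falls were Tek (-3.12 ± 0.22 SE), Vwf (-3.07 ± 0.37 SE) and Cdh5 (-2.91 ± 0.39 SE). The list's summed intensity was 2508 to 5183 in gland and 431 to 1512 in unsorted primary tumors. In such bulk tissue, fewer cells of a type and less RNA per cell cannot be told apart. The genes most like Car4 over 50 replicates were Cd300lg (r = 0.97), Mcpt4 (r = 0.95) and Unc45b (r = 0.94). These correlations only describe gland against the rest, since Car4 left the floor on 5 glands and 1 hyperplasia array.

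Car3, the fat and muscle member, was present in gland and hyperplasia and at the floor in most tumors. In gland Car3 was 7.80, 10.001, 8.69, 6.67 and 8.87, and in hyperplasia 7.68, 6.43, 6.52 and 6.69. All 8 sorted primary tumors were at the floor. Sorted transplants were at the floor in 5 of 7, with D279T2P2 at 7.09 and F402TP2 at 8.62. Of 23 unsorted primary arrays 10 were above the floor, the highest being C117T3 at 11.55, C395T5 at 9.31 and C117T6 at 7.29. In unsorted primary tumor against gland Car3 fell by 2.71 ± 0.70 (SE, 95% interval of the difference -4.12 to -1.30, adjusted p = 0.00119), although C117T3 exceeded every gland. Without C117T3 the difference was -2.86 (adjusted p = 1.61e-05).

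A second Car3 probe set, 1460256_at, gave the same order at the top, with C117T3 at 9.61, C395T5 at 7.48 and gland G360 at 8.64, and fell by 1.55 ± 0.49 (SE, adjusted p = 0.00806). Another, 1430584_s_at, was above the floor on 6 arrays and reached 5.61. The genes most correlated with Car3 over 50 replicates were the adipocyte hormone gene Adipoq (r = 0.87), Slc43a3 (r = 0.79) and the fatty acid carrier gene Fabp4 (r = 0.79). Adipoq was 9.93 in C117T3, 7.80 in C395T5, 6.90 in F402TP2 and 5.74 in D279T2P2, and at the floor in all sorted primary tumors. Of 7 tested adipocyte markers 3 fell in tumor against gland, Fabp4 (-5.31 ± 0.77 SE), Lpl (-2.13 ± 0.51 SE) and Pck1 (-0.48 ± 0.10 SE), and 0 rose. Of all genes 21.6% were called lower there and 29.5% higher. The summed intensity of the 8 measured markers was 3937 to 11421 in gland, 3448 to 5231 in hyperplasia, 435 to 1726 in sorted primary tumors and 632 to 6363 in unsorted primary tumors. In sorted cells the match was partial. Sorted tumor G294T, at 1726 in summed adipocyte intensity, had Car3 at the floor, while D279T2P2, at 1335, had Car3 at 7.09. Hyperplasia F493H had Adipoq at the floor and Car3 at 6.43. Between sorted primary tumor and hyperplasia the median difference was -0.36 for adipocyte, -0.91 for endothelial, -1.94 for fibroblast and -1.13 for macrophage markers. That of all genes was 0.007, and those of basal and myoepithelial (0.73) and epithelial markers (0.34) were positive. Other epithelial lists went the other way, at -0.63 for milk and alveolar and -0.59 for hormone-sensing luminal markers. Skeletal muscle markers were at -0.12 and erythroid markers at 0.03. These medians are given without a test. The part of these cell types in the Car3 level was not tested. Of 6 tested skeletal muscle markers 2 rose and 1 fell in tumor against gland, beside 29.5% of all genes called higher and 21.6% lower. Their summed intensities were 325 to 849 in gland and 287 to 941 in unsorted primary tumors.

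**Figure D3:**
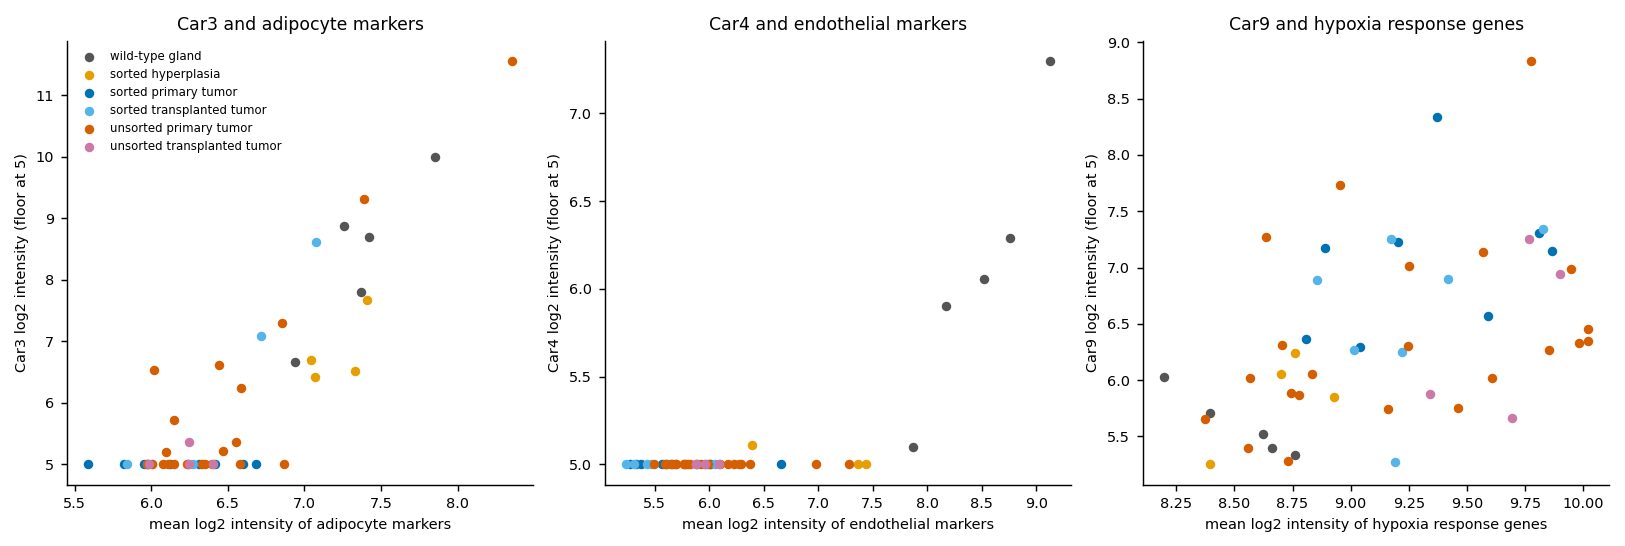
Car3, Car4 and Car9 log2 intensity (vertical axes, floor at 5) against the mean log2 intensity of adipocyte markers, endothelial markers and hypoxia response genes (horizontal axes), 1 point a replicate, coloured by group. C117T3 is highest for both Car3 (11.55) and adipocyte markers (8.36), and D206T1 (8.84) leads Car9 without leading the hypoxia list. The 5 glands are highest in endothelial markers. Glands other than G340 hold the highest Car4 values, and G340 (5.10) is just below hyperplasia G376H (5.11).

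Car2, the highly active cytosolic enzyme found in many tissues, was bright on every array, from 9.44 to 12.41. The glands lay close together at 11.92 ± 0.11 (SD, n = 5), and unsorted primary tumors at 11.29 ± 0.65 (SD, n = 22), from 10.06 (C117T6) to 12.41 (D206T2). The difference from gland of -0.62 ± 0.33 (SE) did not pass (95% interval -1.29 to 0.05, adjusted p = 0.118). It did with quantile normalization, at -1.06 (adjusted p = 0.00742). In sorted primary tumors Car2 was 12.03 in F464T, 11.76 in F405T, 12.003 in E344T and 11.47 in G294T, but 10.26, 10.99 and 10.31 in the F433 tumors and 9.44 in G421T1. The sorted transplant of F433 was also low, at 9.67, against 11.09 to 12.17 in the other 6. None of the 5 tested comparisons called Car2. The genes most like it over 50 replicates were Aftph (r = 0.73), Asb13 (r = 0.72) and Fzd10 (r = 0.72).

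Car13, a cytosolic enzyme encoded on the same chromosome as Car2, gave different answers by probe set. On 1421307_at it was 5.95 to 6.48 in gland and 6.15 (B459U) to 8.37 (D206T2) in unsorted primary tumors, a rise of 1.14 ± 0.37 (SE, 95% interval 0.39 to 1.90, adjusted p = 0.00922). On 1421308_at gland was higher, at 7.30 to 8.41 against 6.32 to 7.48, a fall of 0.95 ± 0.18 (SE, adjusted p = 2.03e-05). The mean of all Car13 probe sets differed by 0.07 (adjusted p = 0.788). The direction of Car13 in tumor against gland is therefore not settled by these probe sets. Gland G340, with the highest Gapdh 3′ over 5′ ratio (1.14), also had the highest 1421308_at level, 8.41. The remaining probe set, 1439620_at, was above the floor on 11 arrays and reached 6.52.

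**Figure D4:**
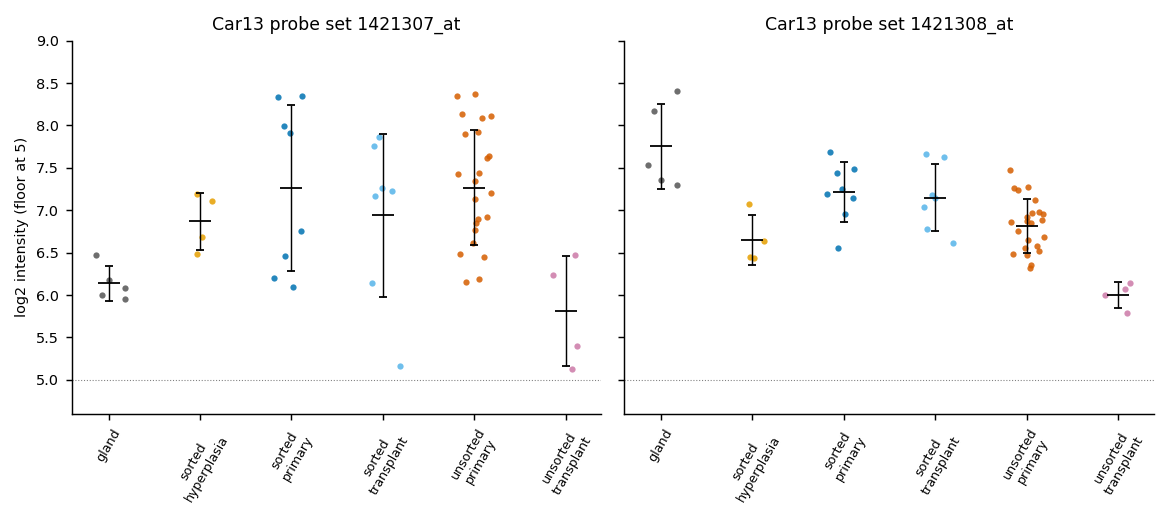
Log2 intensity of 2 Car13 probe sets (vertical axis, floor at 5) by group (horizontal axis). Points are arrays, bars are group means with SD. Gland is low on 1421307_at (5.95 to 6.48) and high on 1421308_at (7.30 to 8.41), while unsorted transplants are low on both.

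Between unsorted transplanted and unsorted primary tumors the probe sets moved the same way. On 1421307_at the transplants were 6.47 and 6.24 (CR90) and 5.39 and 5.13 (CR115), a fall of 1.69 ± 0.43 (SE, 95% interval of the difference -2.56 to -0.83, adjusted p = 0.037). Both arrays of the CR115 primary tumor were much higher, at 8.11 and 8.09. On 1421308_at the 4 transplants, at 5.79 to 6.15, lay below all unsorted primary tumors, at 6.32 to 7.48 (fall of 0.84 ± 0.21 SE, adjusted p = 0.0261). Car13 was the only member called here, 1 of 7 and lower, where 0.932% of all genes were called and 0.192% were called lower. The call rests on 4 arrays of 2 mice of origin, and was lost without CR90-2 (adjusted p = 0.0697), without CR115-3 (0.104), without CR115-4 (0.165) and with 1 value per mouse and group (0.297).

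Car13 was also the only member that differed between sorted and unsorted transplanted tumors. Sorted transplants were 7.87, 6.14, 7.75, 7.23, 7.17, 7.27 and 5.17 in the order D279T1P2, D279T2P2, E344T2P1, F402TP2, F433T4P1, D396TP3 and D279T1P4. They overlapped the unsorted transplants, and were higher by 1.46 ± 0.50 (SE, 95% interval 0.46 to 2.47, adjusted p = 0.0354). On 1421308_at, where sorted transplants ran from 6.62 to 7.66, the groups did not overlap and the difference was 1.23 ± 0.24 (SE, adjusted p = 0.00028). This contrast called 17.5% of all genes, 5.9% of them higher as a share of all tested. The call on 1421307_at was lost without CR115-3 (adjusted p = 0.0782) and without CR115-4 (0.107). The sorted and unsorted transplants come from different mice of origin, so sort and mouse cannot be told apart.

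The sorted arrays split in Car13 as they did in Car2, in the opposite direction. Car13 in sorted primary tumors was 6.20 in F464T, 6.75 in F405T, 6.10 in E344T and 6.46 in G294T, but 8.34, 7.99 and 7.91 in the F433 tumors and 8.33 in G421T1. The first 4 have Gapdh ratios from -0.36 to -0.11 and the last 4 from -0.01 to 0.11. Sorted transplants did not follow this, as D279T1P4, with a ratio of -0.03, had the lowest Car13 (5.17). None of the 7 members was called in sorted against unsorted primary tumors, where 25.3% of all genes were called. Without the 8 sorted arrays of higher ratio, an alternative chosen after the data were seen, Car13 was lower in sorted primary tumors by 0.93 (adjusted p = 0.0317). The part of the ratio in these levels was not tested.

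**Figure D5:**
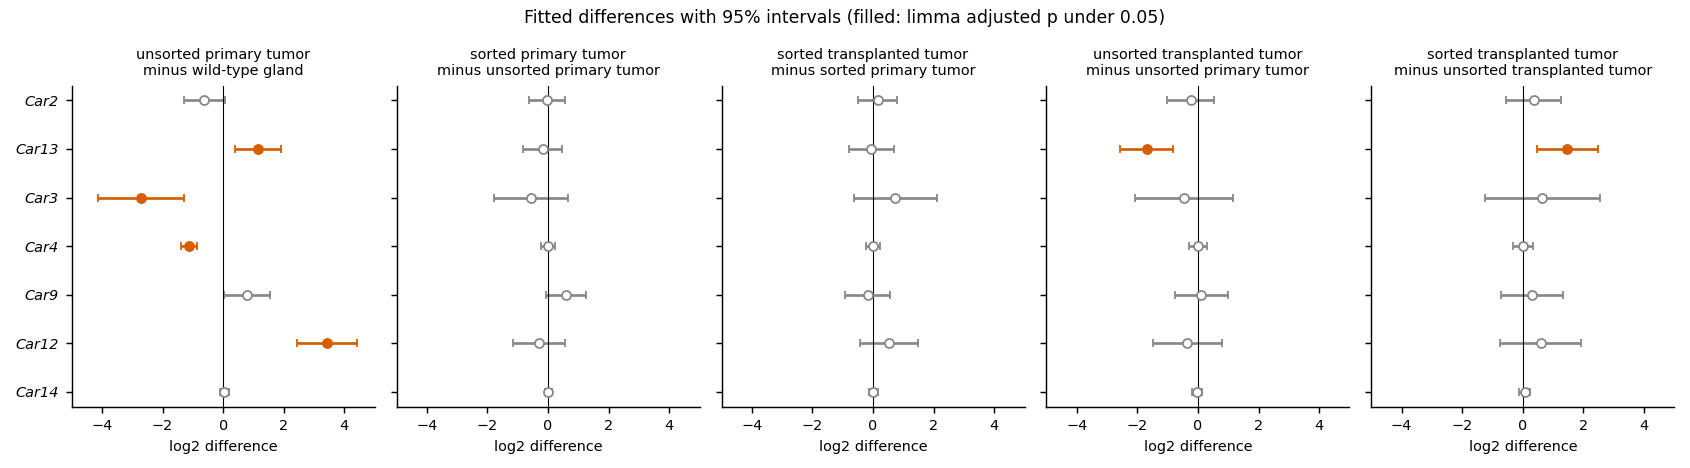
Fitted log2 differences (horizontal axis) with 95% intervals for each carbonic anhydrase gene (vertical axis) in the 5 tested comparisons. Filled points had a limma adjusted p under 0.05, which for Car12 and Car4 in tumor against gland is no test, as their choice or the filter used those values. In tumor against gland Car12 (3.43) and Car13 (1.14, on 1421307_at) are higher and Car3 (-2.71) and Car4 (-1.13) lower. Only Car13 is filled in the comparisons of unsorted transplants.

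Sorted transplanted against sorted primary tumor called 0 of 7 members and 0 of 15128 genes (0%) by limma, with 605 genes at an unadjusted p under 0.05. Member differences there lay between -0.17 (Car9) and 0.74 (Car3). The difference between the transplant effects in sorted and unsorted material was not called for any member, beside 0.0859% of all genes. For Car13 it was 1.64 ± 0.57 (SE, 95% interval 0.50 to 2.78, adjusted p = 0.295), so the fall in unsorted transplants is not shown to be absent from sorted ones.

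Levels of the members were set against each other over the 14 mice with unsorted primary tumors, tumors of a mouse averaged. Car4 was at the floor in all of them, which left 15 of the 21 planned pairs. Car2 and Car13 were positively correlated (r = 0.70, permutation p = 0.00488, adjusted p = 0.0562; rho = 0.71, permutation p = 0.00531, adjusted p = 0.0398). Car12 and Car13 were negatively correlated (r = -0.69, permutation p = 0.0075, adjusted p = 0.0562; rho = -0.72, permutation p = 0.00502, adjusted p = 0.0398). Without the 2 mice farthest from the median of the first gene, r was 0.52 and -0.58. No pair passed by Pearson's r after adjustment. By Spearman's rho those 2 did. Of 4 alternative settings each passed in only 1, floor 100, where the adjustment covered 10 pairs. Floor 16 left rho and permutation p of both unchanged, but the adjustment covered 21 pairs, as with the mean of probe sets. Neither passed with floor 16, quantile normalization or the mean of probe sets. There adjusted p reached 0.164 for Car2 and Car13 and 0.0903 for Car12 and Car13. No pair with Car9 passed (r between -0.27 and 0.48). For Car2 and Car13 the positive sign among unsorted tumors stands beside the opposite pattern in the sorted F433 and G421 arrays. In the RefSeq order of GRCm38.p6, Car13, Car1, Car3 and Car2 follow each other on chromosome 3 with only predicted Gm genes between them, and Car14 is on the same chromosome. Car9 is on chromosome 4, Car12 on 9 and Car4 on 11.

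Other family members were mixed. Of 9 other carbonic anhydrase genes tested, 2 rose and 2 fell in unsorted primary tumor against gland, beside the 51% of all genes called there, with a median of 0.30. Car7, a cytosolic isoform, fell by 1.39 ± 0.22 (SE), from 8.11 ± 0.15 (SD, n = 5) to 6.67 ± 0.30 (SD, n = 22). Car1, the cytosolic isoform of red cells, rose by 0.73 ± 0.20 (SE), and Car11, a family member without catalytic activity, fell by 0.60 ± 0.09 (SE). Among erythroid markers 1 of 3 tested rose, beside 29.5% of all genes called higher. Car6, the secreted isoform known from saliva and milk, was higher in sorted than in unsorted transplants by 2.12 ± 0.69 (SE, adjusted p = 0.0272), with a wide spread among sorted transplants (5.00 to 9.66).

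Transporters that move bicarbonate, protons, lactate or water were mixed. Of 19 tested, 6 rose and 3 fell in unsorted primary tumor against gland, again beside 51% of all genes, with a median of -0.10. The largest were the water channel Aqp1, a gene also expressed by capillary endothelium, which fell by 3.21 ± 0.48 (SE), the water channel Aqp5, which rose by 2.48 ± 0.72 (SE), and Bsg, the chaperone of monocarboxylate transporters, which rose by 2.25 ± 0.36 (SE). In sorted against unsorted primary tumor the anion exchanger gene Slc26a3, at the floor in every unsorted primary tumor, rose by 0.99 ± 0.30 (SE) and the bicarbonate exchanger gene Slc4a2 fell by 0.78 ± 0.16 (SE). In unsorted transplanted against unsorted primary tumor 1 of 19 rose, Slc4a11 (0.64 ± 0.16 SE), and 0 fell, beside 0.932% of all genes called. The chloride channel gene Cftr was at the floor on all 51 arrays.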

How the data were processed

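Total RNA of 51 samples was biotin-labelled and hybridized to Affymetrix arrays, per the labels' protocols. The deposited values are linear probe set intensities. Their summarization and scaling by the authors are not given in the sources used here. The table holds 45101 probe sets, 64 of them controls. A single probe set with outlying extreme values was dropped, which left a maximum of 21364. Values below 32 (37.4%) were set to 32 and log2 was taken. Symbols came from the platform annotation, updated by Entrez identifier with RefSeq (34740 matched): 34944 probe sets had 1 symbol, 932 several and 9160 none.

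Each gene was represented by its probe set of highest mean, and entered the test when 4 or more arrays had it over their own 40th percentile (15128 of 18192 genes did). The 2 arrays of the CR115 primary tumor (r = 0.989) were averaged, giving 50 replicates. All 6 groups were fitted together with limma 3.58.1 (R 4.3.3), mouse of origin as a random block (correlation 0.358), and p-values were adjusted over all genes and called under 0.05. With the block, fitted differences need not equal differences of group means. Correlations over mice used 100000 two-sided permutations (SciPy 1.17.1). Scripts were tested on simulated data.

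The named genes are all members, at most 3 called genes of each other list with the largest differences per comparison, and the 3 genes outside the family most correlated with each member. The members and lists were chosen with earlier results of these data known. Marker lists of macrophages, fibroblasts, basal and milk-secreting cells were run as well. In tumor against gland they gave 1 higher and 3 lower of 8, 0 and 8 of 8, 0 and 4 of 8, and 6 and 0 of 8, and the epithelial list 3 and 1 of 8. Of all genes 29.5% were called higher and 21.6% lower in that comparison.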

Additional observations from a re-analysis of the deposited data

Results flagged for a closer look

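Of 45 combinations of probe set and group with 4 to 10 samples and some spread, 10 had a sample far from the others by Dixon's criterion. Its usual chance rate of about 1 in 20 groups does not apply here. Where all other arrays are at the floor, any single array above it is flagged. The clearest in size were Car2 in sorted transplant F433T4P1, at 9.67 against 11.09 to 12.17 in the other 6, and the second Car12 probe set 1447762_x_at in sorted transplant D279T1P2, at 6.43 against at most 5.47. The other 8 were single arrays a little above the floor of 5. They were Car3 in unsorted transplant CR115-3 (5.37), Car4 in hyperplasia G376H (5.11), and Car4 on 1418094_s_at in hyperplasia G420H (5.04), sorted primary tumor E344T (5.05) and sorted transplant D279T2P2 (5.07). Car12 in gland G340 (5.20) and Car14 in sorted primary tumor F464T (5.30) and sorted transplant F402TP2 (5.33) complete the set.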

How the results depend on the processing

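In tumor against gland Car3 was called in 27 of 27 settings (-3.14 to -1.07). Car13 was called in 26 of 27, the exception being the mean of its probe sets. Those 26 calls all rest on 1421307_at, while 1421308_at fell, so they do not settle the direction of Car13. The untested differences ran from 1.14 to 3.57 for Car12 and from -1.39 to -0.84 for Car4 (25 settings), both set by the floor on one side. The Car12 difference from hyperplasia moved from 3.00 to 1.53 (floor 100) and 1.09 (mean of probe sets) for sorted primary tumor, and from 3.52 to 2.04 and 1.25 for sorted transplants; leaving out 1 replicate gave 2.94 to 3.10 and 3.46 to 3.62. The single call in unsorted transplanted against primary tumor became 0 with floor 100, quantile normalization, the mean of probe sets and 1 value per mouse and group, and 0 to 1 leaving out 1 replicate. That in sorted against unsorted transplants became 0 with floor 100, quantile normalization, no mouse block, 1 value per mouse and group and only the groups compared, and 0 to 1 leaving out 1 replicate. Without the 8 sorted arrays of higher Gapdh ratio, 1 member was called in sorted against unsorted primary tumor and 1 in the difference of transplant effects (Car13, 2.69, adjusted p = 0.0233). Car2 then also passed against gland (adjusted p = 0.0412), and Car9 did with 1 value per mouse and group (0.70, adjusted p = 0.0391). Signs turned, with no call on either side unless stated, in sorted against unsorted primary tumor for Car2 (0.021 with quantile normalization, 0.52 without the higher-ratio arrays), Car13 (0.0014 with floor 100, 0.25 with the mean of probe sets) and Car14 (-0.084 with floor 16, -0.0013 with quantile normalization and with the spike-in covariate, -0.0087 without the block). They also turned in sorted transplanted against primary tumor for Car13 (0.17 with 1 value per mouse, 1.05 without the higher-ratio arrays) and Car14 (-0.042 with floor 16), and in unsorted transplanted against primary tumor for Car9 (-0.062 with the spike-in covariate, and -0.055 to 0.289 leaving out 1 replicate). The Spearman calls were lost with floor 16, quantile normalization and the mean of probe sets (adjusted p from 0.0558 to 0.164). With floor 16 rho and permutation p of both pairs were unchanged, and the adjustment covered 21 pairs in place of 15. The causes were not tested. No paired analysis was possible because replicate numbers in the labels mark only the repeat arrays of the CR115 primary tumor, so none pairs compared groups by number. Mouse of origin, which does tie some arrays of compared groups, was the random block of the reported fit.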
